A study of Mus musculus with 10 samples.

Results

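The enzymes that hydroxylate and crosslink collagen were followed in MC3T3-E1 cells, a mouse line of calvarial osteoblast precursors, cultured with β-ecdysterone, a plant sterol. The members were fixed by name, as the rows of the deposited table for Lox, Loxl1, Loxl2, Loxl3, Loxl4, P4ha2, P4ha3, Plod1, Plod2 and Plod3, and all 10 were found among its 29583 rows. The labels give the strain as C57BL/6, the age as newborn and the source as marrow mesenchymal stem cells, while the title and the culture notes name MC3T3-E1. There were 10 libraries. The 6 treated libraries came from cells given 100, 150 or 200 μM β-ecdysterone for 5 or 10 days, 1 library for each dose and day, and 2 libraries came from cells at 0 μM on day 5 and on day 10. The other 2 libraries, A-5 and B-4, are labelled untreated with no time. All cells were of the same line and culture generation and carried no other agent that the labels name.

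Newly made collagen chains are modified in the endoplasmic reticulum before they fold into a triple helix. Prolyl 4-hydroxylases turn proline into hydroxyproline, which holds the helix together at body temperature, and lysyl hydroxylases turn lysine into hydroxylysine, the site for sugars and for stable crosslinks. Outside the cell the copper enzymes of the lysyl oxidase family oxidize lysine and hydroxylysine, and the aldehydes formed join neighbouring collagen or elastin molecules. The hydroxylases need oxygen, iron, 2-oxoglutarate and ascorbate. In bone these steps set the strength of the matrix that is later mineralized.

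The library totals ran from 27108562 to 58218009 counts. Both 150 μM libraries held the most reads, 57220036 counts on day 5 and 58218009 on day 10, so dose and depth were not independent. The 8 osteoblast markers summed to 1107 to 2110 FPKM (fragments scaled to transcript length and library size) in treated cells, 1305 to 1609 FPKM at 0 μM, and 689 and 535 FPKM in A-5 and B-4, but most of each sum was Col1a1 (938 to 1660 FPKM in treated cells, 1283 and 1590 FPKM at 0 μM). Other markers differed greatly with treatment. Ibsp, a bone matrix sialoprotein, was 0.292 and 0.371 FPKM at 0 μM and 31.6 to 342 FPKM in treated cells, Alpl, the alkaline phosphatase of bone, was 0 and 0.0225 against 5.7 to 22.7 FPKM, and Sp7, the factor osterix, was 1.86 and 1.53 against 15.6 to 38.1 FPKM. In A-5 and B-4 these 3 markers were at 3.81 FPKM or less. Runx2 was 16.3 and 14.8 FPKM at 0 μM and 33.4 to 44.5 FPKM in treated cells, Dmp1 was lower in treated cells (0.0821 to 0.548 against 1.35 and 0.579 FPKM), and Bglap and Phex overlapped between the groups. The summed levels of 5 macrophage markers (0.716 to 1.05 FPKM treated, 1.16 to 1.24 at 0 μM, Tyrobp at 0 in every library), 5 adipocyte markers (0.123 to 0.297 against 0.0882 to 0.0986, Cfd at 0), 5 endothelial markers (0.454 to 0.616 against 0.145 to 0.186) and 5 muscle markers (1.27 to 2.6 against 0.547 to 0.645) were low. Those of 5 chondrocyte markers were 17.7 to 30.1 FPKM in treated cells and 18.2 to 20.1 FPKM at 0 μM. Several of these markers and sums moved with treatment, and their part in the results was not tested.

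In cells given β-ecdysterone, 4 of the 10 enzyme mRNAs were lower than at 0 μM, 1 was higher and 5 did not pass the test. P4ha2, Loxl1, Plod1 and P4ha3 fell and Loxl4 rose (edgeR's quasi-likelihood test adjusted for day, adjusted p under 0.05). Over all 16794 genes tested, 22.6% were higher and 20.8% were lower by the same rule. A list of 10 is too short to set its shares apart from these. The median log2 fold change was -0.27 over the members and 0.05 over all genes. The members' median includes Loxl2 (-1.18), which rests on few reads and did not pass the filter among treated cells alone, so it is only a description. Among the members that passed, P4ha2 alone changed more than 2-fold. Thus 1 member was lower and 0 were higher at that limit, against 5.98% and 13.4% of all genes. DESeq2 also passed 5 members, beside 7620 of all 16794 genes. With day in the fit, the p-values measure the spread between doses within a day and of the change against 0 μM between days. No dose and day had a second library, so the spread between repeats was not measured. The labels give n = 3 for the extraction of RNA, and do not say whether a library pools 3 extractions. Nothing in them says that the libraries came from separate cultures, and in bulk RNA fewer cells of a type and less RNA per cell cannot be told apart.

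Which enzymes were called lower depended on the control. When A-5 and B-4 took the place of the 0 μM libraries, 0 members were lower in edgeR, while 1616 of all genes were. This fit had no day covariate, because A-5 and B-4 have no stated time, and these libraries differed from each other (P4ha3 at 41.4 and 20.2 FPKM). The fitted change of P4ha2, Loxl1 and P4ha3 turned positive, to 0.26, 0.71 and 0.48 on the log2 scale (adjusted p = 0.344, 0.126 and 0.164). Plod1 stayed lower without passing, at -0.40 (adjusted p = 0.159), and Loxl4 stayed higher and passed, at 0.76 (adjusted p = 0.00572). The falls given below are thus falls from the 0 μM libraries.

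**Figure D1:**
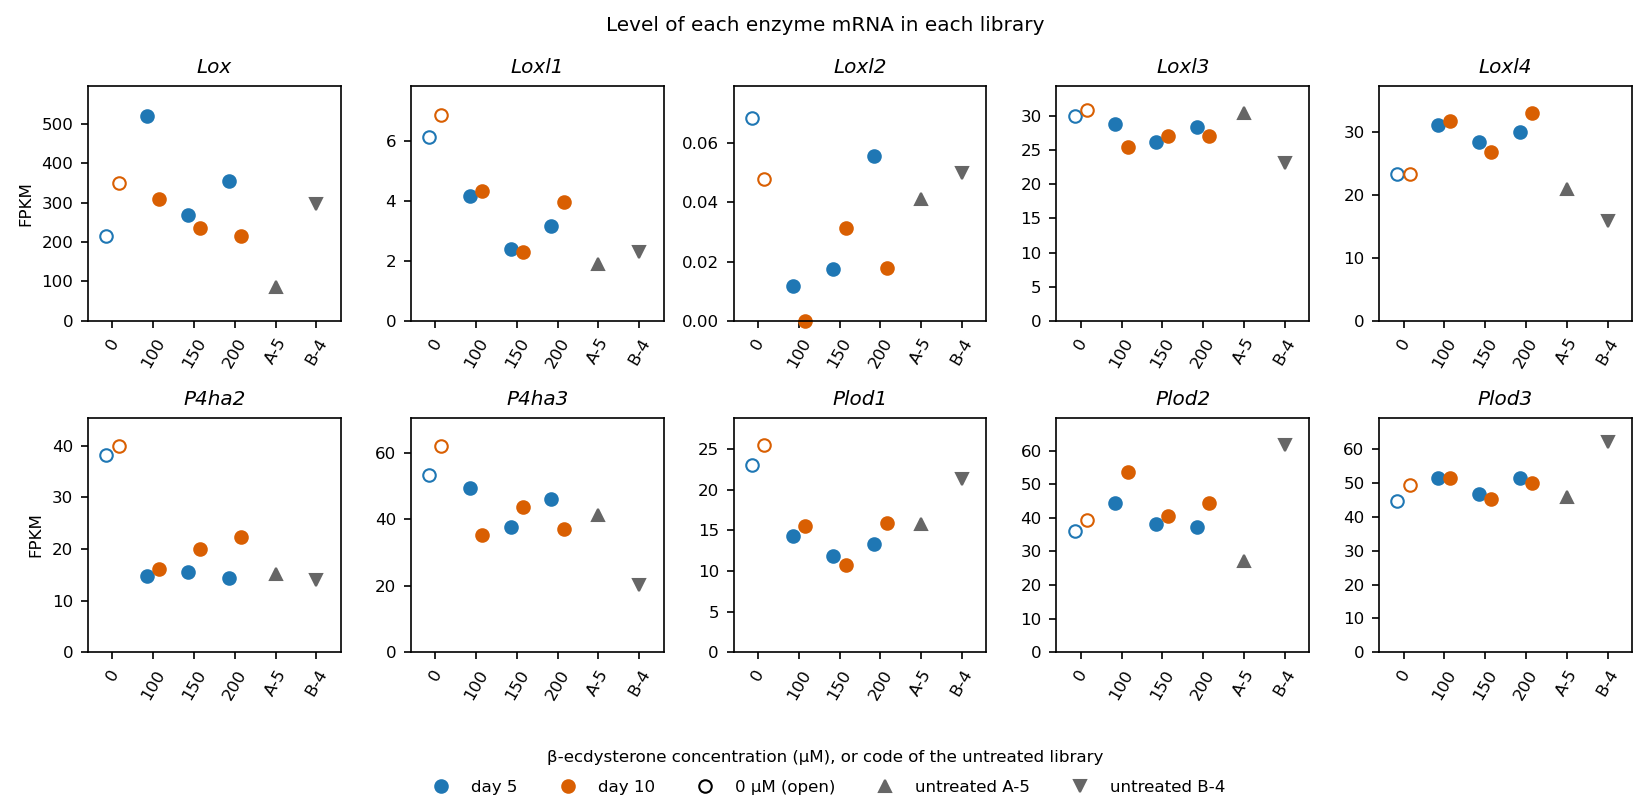
Level of each enzyme mRNA (FPKM, vertical axis, from 0) in the 10 single libraries, by β-ecdysterone concentration (μM) and for untreated A-5 and B-4 on the horizontal axis, with day 5 in blue, day 10 in orange and 0 μM as open circles. P4ha2, Loxl1, Plod1 and P4ha3 lie lower in all 6 treated libraries than in both open circles. So does Loxl3, which alone of these did not pass the test. Loxl4 lies higher, and for P4ha2 the untreated libraries at 15.1 and 14.0 FPKM lie with the treated ones.

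P4ha2 encodes a catalytic alpha subunit of prolyl 4-hydroxylase. The gene lies at chr11:54100095-54131665 on the plus strand of GRCm38 in the GENCODE M21 annotation. Its promoter window is shown because P4ha2 fell the furthest of the members that passed. P4ha1, another alpha subunit, is shown with it, and both genes are textbook targets of the hypoxia-inducible factors. Plod1 is shown as the lysyl hydroxylase that fell and Loxl4 as the member that rose. The windows run from 250 bases before to 50 bases after a start site in RefSeq (GRCm38.p6), 5′ to 3′ along the gene. They are chr11:54100674-54100973 (plus strand) for P4ha2, chr10:59323046-59323345 (plus strand) for P4ha1, chr4:147936727-147937026 (minus strand) for Plod1 and chr19:42612757-42613056 (minus strand) for Loxl4. The P4ha2 window lies downstream of the start that GENCODE gives for the gene, so it belongs to another of its start sites. Capitals mark ACGTG or GCGTG, the spellings of the hypoxia response core, on either strand, where the other strand reads CACGT or CACGC.
P4ha2: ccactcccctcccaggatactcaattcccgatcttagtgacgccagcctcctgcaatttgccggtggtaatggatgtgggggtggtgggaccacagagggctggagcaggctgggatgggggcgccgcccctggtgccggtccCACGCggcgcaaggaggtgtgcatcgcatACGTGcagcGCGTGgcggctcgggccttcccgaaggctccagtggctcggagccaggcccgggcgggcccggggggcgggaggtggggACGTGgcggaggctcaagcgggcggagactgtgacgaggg
P4ha1: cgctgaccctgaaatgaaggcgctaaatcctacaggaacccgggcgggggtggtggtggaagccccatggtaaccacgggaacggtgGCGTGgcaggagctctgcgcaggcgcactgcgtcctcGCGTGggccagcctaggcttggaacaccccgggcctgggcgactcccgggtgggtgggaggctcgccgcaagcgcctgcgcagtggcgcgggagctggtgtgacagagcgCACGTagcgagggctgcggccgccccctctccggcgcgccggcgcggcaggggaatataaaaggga
Plod1: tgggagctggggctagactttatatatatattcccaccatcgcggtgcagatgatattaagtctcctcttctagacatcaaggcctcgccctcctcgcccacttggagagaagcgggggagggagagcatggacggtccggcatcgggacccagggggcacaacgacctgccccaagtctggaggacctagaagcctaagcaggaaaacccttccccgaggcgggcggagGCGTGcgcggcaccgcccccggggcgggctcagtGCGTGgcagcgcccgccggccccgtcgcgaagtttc
Loxl4: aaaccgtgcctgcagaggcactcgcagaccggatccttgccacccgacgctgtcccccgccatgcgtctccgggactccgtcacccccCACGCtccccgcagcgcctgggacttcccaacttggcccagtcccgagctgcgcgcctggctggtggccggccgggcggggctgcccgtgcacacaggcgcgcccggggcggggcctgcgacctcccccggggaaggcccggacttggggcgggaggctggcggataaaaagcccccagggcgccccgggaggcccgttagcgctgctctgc

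The P4ha2 window holds ACGTG 2 times, with first bases at -78 and 11 from the start site, and GCGTG 2 times, at -107 and -69. The P4ha1 window holds ACGTG at -16 and GCGTG at -163 and -126. The Plod1 window holds GCGTG at -20 and 15 with no ACGTG, and the Loxl4 window holds GCGTG at -162. Among the other members with a window, Plod3 holds ACGTG at -54 and GCGTG 3 times, and P4ha3 holds neither. At least 1 of these 2 spellings stood in 43.8% of all 32851 RefSeq mouse windows (ACGTG in 19.6%, GCGTG in 32.4%), so a match is common. No window was available for Loxl1, Loxl2, Loxl3 or Plod2. Whether any match has a part in the changes was not tested. Of the other motifs searched on both strands, the GC box GGGCGG, in 35.7% of all windows, stood 4 times in P4ha2, 5 times in P4ha3 and 3 times each in Plod1 and Loxl4. The E-box CACGTG (7.15% of all windows) was in none of these windows, and of the Runx cores TGTGGT (16.8%) stood once each in P4ha2 and Plod3 and TGCGGT (6.45%) in none. TATAAA (13.6%) stood at -232 in Plod1 and at 40 in P4ha1.

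P4ha2 mRNA was 38.2 FPKM at 0 μM on day 5 and 40.0 FPKM at 0 μM on day 10. With β-ecdysterone on day 5 it was 14.7 FPKM at 100 μM, 15.6 at 150 μM and 14.5 at 200 μM, and on day 10 it was 16.2, 20.1 and 22.3 FPKM at the same doses. All 6 treated libraries lay far below both 0 μM libraries, without overlap, and the day 10 values were the higher at each dose. The mean was 17.2 ± 3.2 FPKM (SD, n = 6) against 39.1 FPKM (n = 2), 2.27-fold lower, and the fitted log2 fold change was -1.14 (SE 0.110, adjusted p = 4.5e-05). Leaving out any 1 library kept the call, with log2 fold changes between -1.35 and -0.92. The untreated libraries held 15.1 FPKM (A-5) and 14.0 FPKM (B-4), within or just under the range of treated cells, and with these 2 libraries added to 0 μM the change was -0.57 and did not pass (adjusted p = 0.162).

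P4ha3 encodes a further alpha subunit, and lies at chr7:100285520-100319699. It was 53.2 FPKM at 0 μM on day 5 and 62.0 FPKM on day 10. Treated cells held 49.5, 37.8 and 46.2 FPKM on day 5 at 100, 150 and 200 μM, and 35.2, 43.8 and 37.1 FPKM on day 10. The groups did not overlap, but the highest treated library came close to the 0 μM library of its own day. The fitted log2 fold change was -0.44 (SE 0.141, adjusted p = 0.030), and it did not pass without 0 μM on day 10 (-0.26, adjusted p = 0.364), without 100 μM on day 10 (adjusted p = 0.0545) or without 200 μM on day 10 (adjusted p = 0.0640). A-5 held 41.4 FPKM and B-4 held 20.2 FPKM, the latter under every treated library.

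P4ha1 is no member but shares the task, and its mRNA fell further than that of any member that passed. It was 93.2 and 86.6 FPKM at 0 μM and 21.9 to 31.1 FPKM in the 6 treated libraries, a log2 fold change of -1.74 (SE 0.110, adjusted p = 4.2e-06). Unlike P4ha2 it was high in the untreated libraries too, 77.4 FPKM in A-5 and 58.9 FPKM in B-4, and it stayed lower when these served as the control (-1.26, adjusted p = 0.00189). The beta subunit P4hb, which is also protein disulfide isomerase, held 398 to 549 FPKM in treated cells against 437 and 447 FPKM, with a log2 fold change of 0.08 (adjusted p = 0.65) that turned to -0.07 without 0 μM on day 10.

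The 3 alpha subunits together summed to 185 and 189 FPKM at 0 μM and to 78.6 to 91.0 FPKM in treated cells, with 134 FPKM in A-5 and 93.2 FPKM in B-4. The makeup of the sum differed as well. P4ha1 made up 50.5% and 45.9% of it at 0 μM and 25.6% to 34.7% in treated cells, whereas P4ha3 made up 28.8% and 32.9% at 0 μM and 41.0% to 57.4% in treated cells. P4ha2 held 20.7% and 21.2% at 0 μM and 17.1% to 24.6% in treated cells. Col1a1 and Col1a2, the chains of type I collagen, had log2 fold changes of 0.01 (adjusted p = 0.98) and 0.09 (adjusted p = 0.71) against 0 μM, with signs that turned when a library was left out and, for Col1a1, under other scalings. Per 100 FPKM of these 2 chains, the alpha subunits stood at 5.63 and 4.70 FPKM at 0 μM and at 1.90 to 3.16 FPKM in treated cells. In A-5 and B-4, where the collagen chains were themselves lower, the ratio was 6.92 and 5.84. These sums and shares are descriptions without a test.

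**Figure D2:**
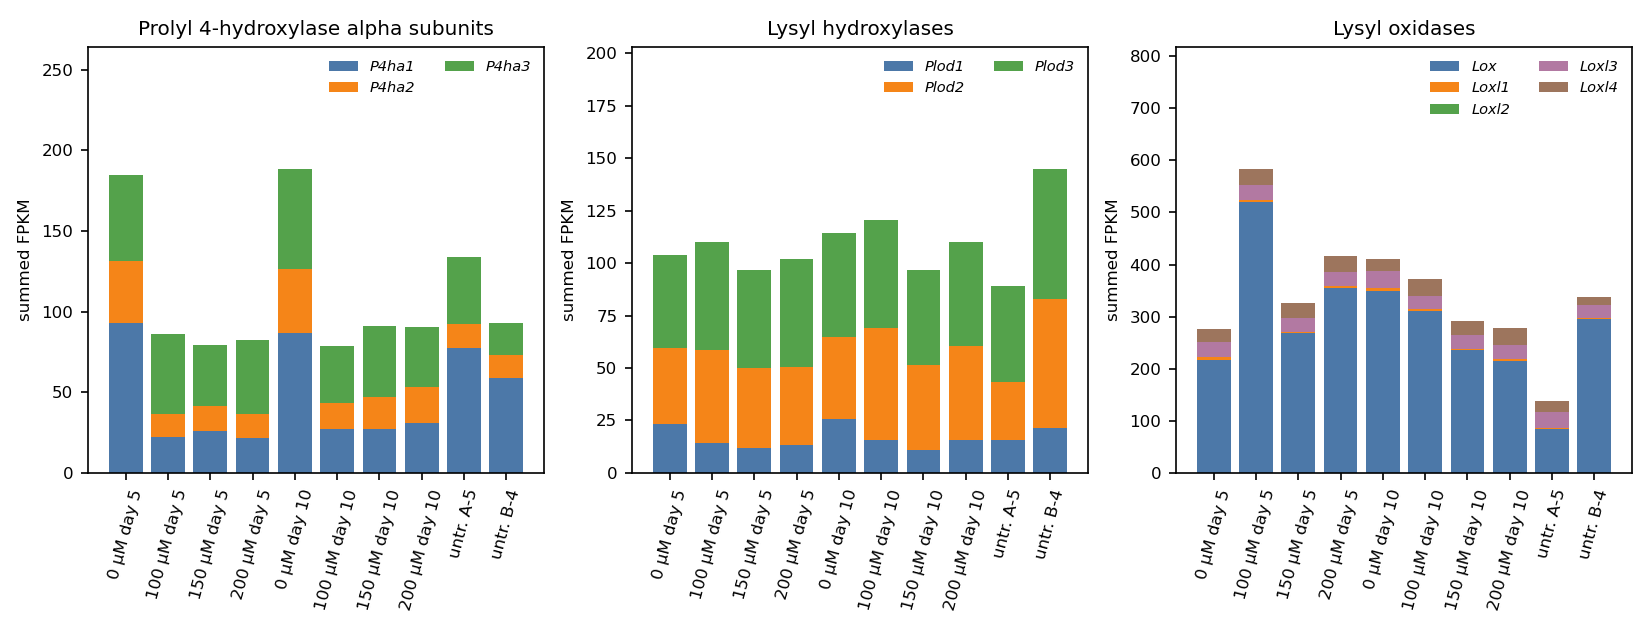
Summed FPKM (vertical axis, from 0) of the prolyl 4-hydroxylase alpha subunits, the lysyl hydroxylases and the lysyl oxidases in each of the 10 libraries (horizontal axis), with 1 colour per gene and no error bars since each bar is 1 library. The alpha subunit sum is 185 and 189 FPKM at 0 μM and at most 91.0 FPKM in treated cells, while the sums of the other families overlap between the groups.

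Plod1, the lysyl hydroxylase that acts mainly on the helical part of collagen, lies at chr4:147909753-147936767. Its mRNA was 23.1 FPKM at 0 μM on day 5 and 25.5 FPKM on day 10. Treated cells held 14.3, 11.8 and 13.3 FPKM on day 5 at 100, 150 and 200 μM, and 15.6, 10.8 and 15.9 FPKM on day 10. Every treated library was below both 0 μM libraries, and on each day the lowest was 150 μM, which was also the most deeply sequenced. The fitted log2 fold change was -0.79 (SE 0.146, adjusted p = 0.0019), and it stayed between -0.85 and -0.71 with any 1 library left out. With the log2 library total as a covariate, an alternative chosen after seeing the data, it was -0.79 (adjusted p = 0.000618). A-5 held 15.8 FPKM and B-4 held 21.3 FPKM, between the treated cells and 0 μM in B-4 and at the upper end of treated cells in A-5.

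Plod2, which hydroxylates the telopeptide lysines that lead to the hydroxylysine type of crosslink, was 36.2 and 39.5 FPKM at 0 μM. It was 44.3, 38.1 and 37.3 FPKM on day 5 and 53.6, 40.5 and 44.4 FPKM on day 10 at 100, 150 and 200 μM. All 6 treated libraries were above the 0 μM library of their own day, with 100 μM the highest on both days. Across days the groups overlapped, and the log2 fold change of 0.23 (SE 0.135) did not pass (adjusted p = 0.19). Plod3, which also adds sugars to hydroxylysine, was 44.7 and 49.3 FPKM at 0 μM and 45.3 to 51.5 FPKM in treated cells (log2 fold change 0.14, SE 0.0976, adjusted p = 0.27). The 3 lysyl hydroxylases summed to 104 and 114 FPKM at 0 μM and to 96.6 to 121 FPKM in treated cells. Within that sum Plod1 made up 22.2% and 22.3% at 0 μM and 11.2% to 14.4% in treated cells.

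Lox encodes the founding lysyl oxidase, the main crosslinking enzyme of fibrillar collagen, and was the most abundant member per length in all 10 libraries. It made up 77% to 89.0% of the summed FPKM of its family in treated cells and 78.4% and 85.1% at 0 μM. On day 5 it was 216 FPKM at 0 μM and 520, 269 and 355 FPKM at 100, 150 and 200 μM. On day 10 it was 349 FPKM at 0 μM and 310, 236 and 214 FPKM at the same doses. By FPKM all 3 treated libraries were above 0 μM on day 5 and below it on day 10, and the groups overlapped. Neither day had a repeat at 0 μM, and on another scaling 100 μM on day 10 was not below it. The log2 fold change was 0.81 (SE 0.358) on day 5 and -0.34 (SE 0.334) on day 10, with 0.18 (SE 0.304, adjusted p = 0.66) over both. Without 0 μM on day 5 the sign turned, to -0.34. A-5 held 85.2 FPKM and B-4 held 296 FPKM, so the libraries without treatment spanned a wider range than the 2 at 0 μM.

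Loxl1, an elastic fibre crosslinker, lies at chr9:58287738-58313186 and was 6.14 FPKM at 0 μM on day 5 and 6.88 FPKM on day 10. Treated cells held 4.18, 2.41 and 3.15 FPKM on day 5 and 4.35, 2.29 and 3.97 FPKM on day 10 at 100, 150 and 200 μM. The groups did not overlap, and as with Plod1 the deeply sequenced 150 μM libraries were the lowest on each day. The fitted log2 fold change was -0.89 (SE 0.246, adjusted p = 0.015), and -0.90 (adjusted p = 0.00396) with the log2 library total as a covariate. With 1 library at 0 μM left out the size held and the call did not, at -0.87 without day 5 (adjusted p = 0.0934) and -0.92 without day 10 (adjusted p = 0.0931). A-5 held 1.9 FPKM and B-4 held 2.31 FPKM, as low as the lowest treated libraries, and with them added to 0 μM the change was -0.29 (adjusted p = 0.586).

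Loxl4 lies at chr19:42593982-42612813 and was the one member that rose. It was 23.3 FPKM in both 0 μM libraries. Treated cells held 31.0, 28.4 and 29.9 FPKM on day 5 and 31.7, 26.7 and 33.0 FPKM on day 10 at 100, 150 and 200 μM. Every treated library was above both 0 μM libraries, and 150 μM was again the lowest of each day. The mean was 30.1 ± 2.29 FPKM (SD, n = 6), 1.29-fold higher, with a log2 fold change of 0.43 (SE 0.103, adjusted p = 0.0075), which did not pass without 0 μM on day 10 (0.36, adjusted p = 0.114). A-5 held 20.9 FPKM and B-4 held 15.8 FPKM, both lower than at 0 μM.

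Loxl3 was the steadiest member, with a coefficient of variation of 4.71% over treated libraries. It was 30 and 30.9 FPKM at 0 μM and 25.5 to 28.9 FPKM in treated cells. The groups did not overlap, yet this shift did not pass (log2 fold change -0.11, SE 0.082, adjusted p = 0.29). The share of all genes without overlap was not counted, so lack of overlap is a description and no support for a call. Loxl2 was at the edge of detection. It had 21 and 9 counts at 0 μM, 3, 7 and 11 counts at 100, 150 and 200 μM on day 5, and 0, 11 and 6 counts on day 10, which is at most 0.0687 FPKM in those 8 libraries. A count of 0 allows up to 3 counts. Loxl2 passed the filter on low counts in the comparison with 0 μM but not among treated cells alone. Its log2 fold change of -1.18 (SE 0.705, adjusted p = 0.2) rests on these few reads.

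**Figure D3:**
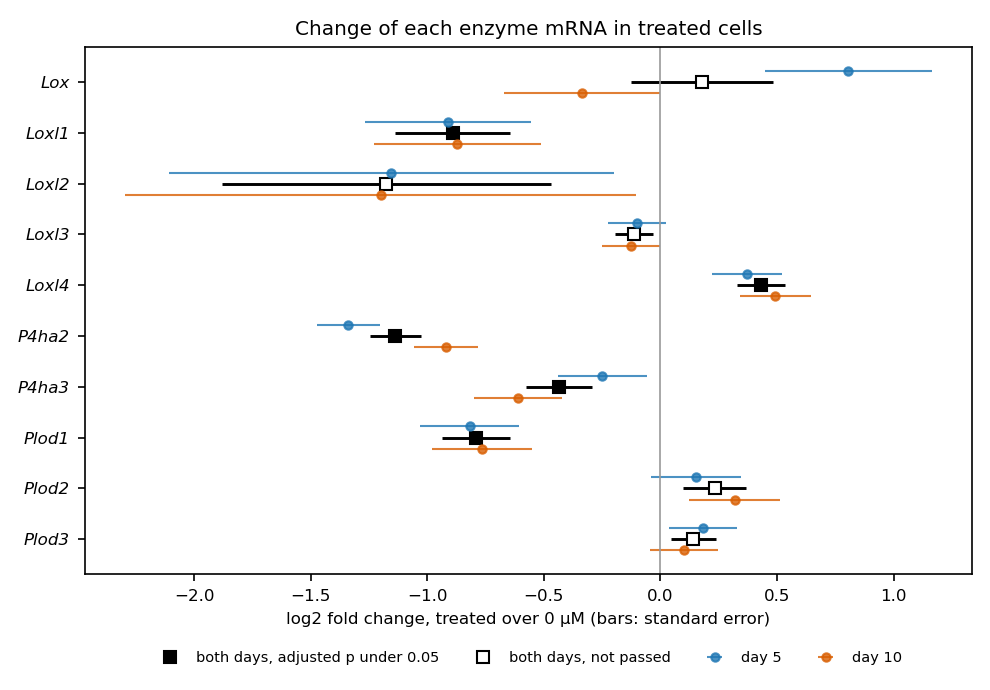
Log2 fold change of each enzyme mRNA, treated cells over 0 μM (horizontal axis), with standard errors from the edgeR fit. Squares are both days together, filled where the adjusted p was under 0.05, and circles are day 5 (blue) and day 10 (orange). P4ha2, Loxl1, Plod1 and P4ha3 lie left of 0 on both days, Loxl4 lies right of 0 on both, and Lox is at 0.81 on day 5 and -0.34 on day 10.

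The order of the members by FPKM differed between the groups. In treated cells it ran Lox, Plod3, Plod2, P4ha3, Loxl4, Loxl3, P4ha2, Plod1, Loxl1 and Loxl2, with means of 317, 49.4, 43.0, 41.6, 30.1, 27.2, 17.2, 13.6, 3.39 and 0.0223 FPKM. Neighbours overlapped over the 6 libraries from Plod3 to P4ha3, between Loxl4 and Loxl3, and between P4ha2 and Plod1. At 0 μM P4ha3 came next after Lox with a mean of 57.6 FPKM and P4ha2, with 39.1 FPKM, stood above Plod2 and Loxl3. The largest relative spread between treated libraries among members above 1 FPKM was that of Lox, at 35.1%, and the next was that of Loxl1, at 26.7%.

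Among treated cells alone, 0 of the 9 members tested differed between day 10 and day 5 after adjustment in edgeR, against 1.6% of 16020 genes higher and 0.618% lower on day 10. At an unadjusted p under 0.05 there were 3, Lox, P4ha2 and Plod2, among 2725 of all genes. P4ha2 came nearest, with day 10 above day 5 by 0.46 on the log2 scale (adjusted p = 0.059), and DESeq2 passed it alone (adjusted p = 0.00503). By library totals without TMM the median of all genes moved by -0.13, and the P4ha2 difference was 0.33 (adjusted p = 0.112). It passed with dose as a factor (adjusted p = 0.0387) and with all genes that had at least 1 count (adjusted p = 0.00356). Lox was lower on day 10 by -0.50 on the log2 scale (adjusted p = 0.24), and it passed with that wider set of genes (adjusted p = 0.00588) and without 150 μM on day 5 (-0.69, adjusted p = 0.0362).

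No member passed the test for a trend with dose between 100 and 200 μM. In edgeR 0 of 9 members passed and 0% of 16020 genes were higher or lower with dose, while 380 genes did so at an unadjusted p under 0.05, Lox and Plod2 among them. DESeq2 passed 2 genes and 0 members. Lox had a slope of -0.59 on the log2 scale per 100 μM (SE 0.226), and both it and Plod2 were highest at 100 μM on each day. Whether the change against 0 μM differed between days was tested as an interaction. None of the 10 members passed in edgeR, with 0% of 16794 genes higher and 0.0119% lower on day 10 than on day 5, and 1 member (Lox) among 1395 genes at an unadjusted p under 0.05. DESeq2 passed 80 genes and 0 members. In simulated counts, with the same spread for every gene, the edgeR interaction test found 0 of 200 differences with a log2 size of 1. With a log2 size of 2 it found 140 of 200. The lack of a call for the members therefore cannot decide whether differences near the smaller size were present.

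The genes that work beside these enzymes were counted by list in the comparison with 0 μM. Of 21 tested genes for collagen folding and processing, 5 rose, 5 fell and 11 did not pass, with a median log2 fold change of 0.15, against 22.6% of all genes higher and 20.8% lower, so these counts were near the background. The rises were led by Pcolce2, an enhancer of procollagen C-proteinase (2.92), and Tmem38b, an endoplasmic reticulum cation channel (1.1). The largest falls were P4ha1 (-1.74) and Tgm2, a transglutaminase that crosslinks proteins by another chemistry (-1.66). Tgm2 did not pass against the untreated libraries (-0.82, adjusted p = 0.0512), where it was 36.6 FPKM in A-5 and 14.8 in B-4. Bmp1, the protease that trims procollagen and activates the Lox proenzyme, fell by 0.37 on the log2 scale (adjusted p = 0.006), a call that was lost without 0 μM on day 5 (-0.28, adjusted p = 0.112) and against the untreated libraries (-0.31, adjusted p = 0.081). Serpinh1, the collagen chaperone HSP47, and Fkbp10, a prolyl isomerase that works with Plod2, had changes of -0.08 (adjusted p = 0.53) and 0.15 (adjusted p = 0.41).

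Of 11 fibrillar collagen genes, 5 rose, 2 fell and 4 did not pass, with a median of 0.09, again beside 22.6% of all genes higher and 20.8% lower. Col27a1 (1.88) and Col24a1 (1.84) rose the most, and Col5a3 (-1.33) and Col5a2 (-0.35) fell, though Col5a2 did not pass without 0 μM on day 10 (-0.28, adjusted p = 0.175). Against the untreated libraries Col5a2 was higher in treated cells instead (0.57, adjusted p = 0.0239), and Col5a3 (-0.11, adjusted p = 0.787), Col27a1 (0.46, adjusted p = 0.27) and Col24a1 (1.03, adjusted p = 0.0827) did not pass. Col24a1 was low, at 0.153 and 0.151 FPKM at 0 μM and 0.395 to 0.825 FPKM in treated cells. Of 14 genes for elastic fibres and lysyl oxidase partners, 5 rose, 6 fell and 3 did not pass, with a median of -0.02, beside the same shares of all genes. Postn, a matricellular protein that helps activate Lox, rose by 4.90 on the log2 scale, and Fmod, a proteoglycan that guides Lox on collagen fibrils, rose by 2.50. Fbln2 (-1.04) and Emilin1 (-0.93), both of the elastic fibre, fell from the 0 μM libraries alone. Fbln2 was 72.6 and 90.0 FPKM in A-5 and B-4, inside the treated range of 61.1 to 92.0, and Emilin1 was 77.4 and 53.6 FPKM against 44.1 to 64.7, so that neither passed against the untreated libraries (-0.044, adjusted p = 0.892, and -0.20, adjusted p = 0.479). Fmod did not pass there either (1.85, adjusted p = 0.0699), while Postn did (4.2, adjusted p = 0.0128).

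Targets of the hypoxia-inducible factors were mostly lower. Of 17 tested, 14 fell, 1 rose and 2 did not pass, with a median of -1.35, against 20.8% of all genes that fell. Car9, a carbonic anhydrase (-4.04), and Ankrd37 (-3.51) fell the most, and both passed against the untreated libraries too (-2.73, adjusted p = 0.00189, and -3.02, adjusted p = 0.00874). Ankrd37 had 82 and 63 counts at 0 μM and 0 to 13 counts in treated libraries, and like Loxl2 it was filtered out among treated cells alone, so its place in the count and the median rests on its level at 0 μM. Ndrg1 rose (0.42), but was at 0.21 (adjusted p = 0.333) without 0 μM on day 5 and 0.17 (adjusted p = 0.545) against the untreated libraries. P4ha1, P4ha2, Plod2 and Lox are among the known targets of the same factors. The other members, with Loxl4 that rose among them, were not sorted by this. P4ha1 and P4ha2 fell from 0 μM, while Plod2 (0.23) and Lox (0.18) did not pass. Against the untreated libraries P4ha1 stayed lower, but the fitted change of P4ha2 turned positive without passing. Of 10 targets of TGF-beta, which is known to raise Lox and Plod2, 2 rose, 5 fell and 3 did not pass, with a median of -0.69, beside 22.6% of all genes higher and 20.8% lower. Pmepa1 rose (0.84), and Ctgf (-1.15) and Tgfbi (-0.89) fell. Ctgf (-0.72, adjusted p = 0.253) and Pmepa1 (0.78, adjusted p = 0.0509) did not pass without 0 μM on day 10, nor did Tgfbi without 0 μM on day 5 (-0.23, adjusted p = 0.529). Against the untreated libraries Ctgf was higher in treated cells instead, by 2.34 on the log2 scale (adjusted p = 0.00731), Tgfbi turned sign without passing (0.71, adjusted p = 0.233), and Pmepa1 did not pass (0.70, adjusted p = 0.0819).

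**Figure D4:**
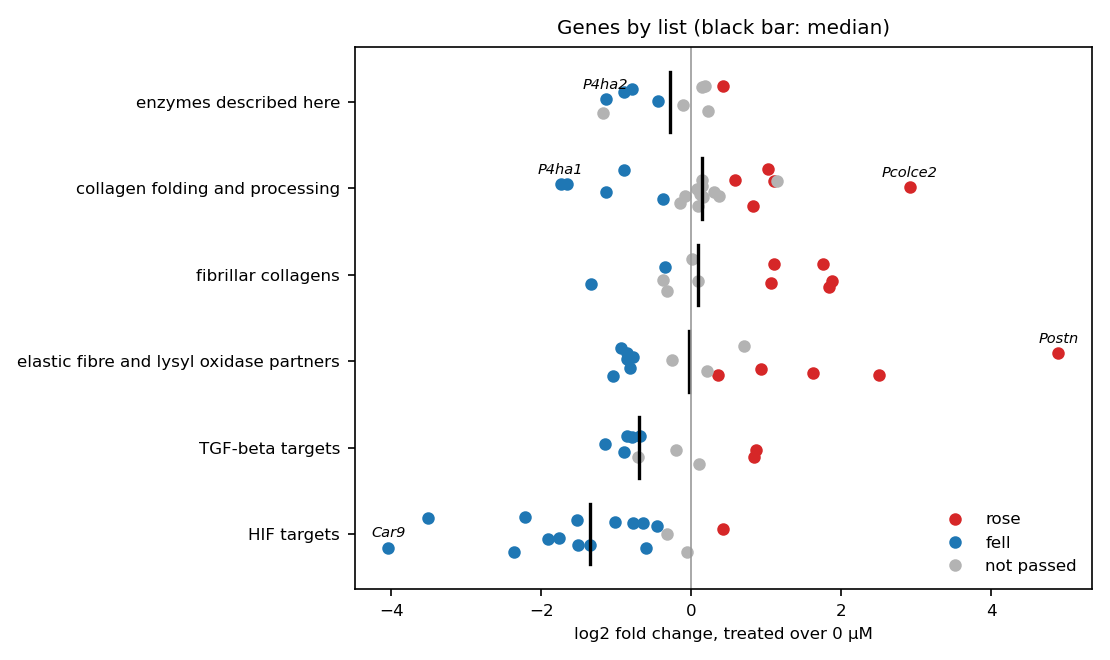
Log2 fold change of single genes, treated cells over 0 μM (horizontal axis), by gene list (vertical axis), with genes that rose in red, genes that fell in blue, genes that did not pass in grey and the median of each list as a black bar. The enzymes, with Loxl2 at the edge of detection among them, have a median of -0.27. The hypoxia-inducible factor targets have one of -1.35, with Car9 at -4.04 and Postn at 4.90 as the ends of the range.

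The genes most like the 3 members with the largest called changes were found by Pearson correlation of log2 CPM (counts scaled to library size after TMM scaling) over the 10 libraries, among 10392 genes. For P4ha2 they were Scyl3 (r = 0.962), Spire1 (0.955) and Hcn2 (0.952), for Loxl1 Mgat1 (0.931), Arfgef2 (0.928) and Prkcsh (0.909), and for Plod1 Ubr2 (0.954), Zdhhc18 (0.949) and Pgm1 (0.945). Among the members themselves the highest correlations were those of Loxl3 with P4ha3 (0.907), Plod2 with Plod3 (0.886) and Loxl1 with P4ha2 (0.755), and the lowest was that of P4ha3 with Plod3 (-0.647). The 10 libraries include the untreated pair, whose levels stood apart for several members, and the values are descriptions over 10 points.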

How the data were processed

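Libraries of poly(A) RNA were made with a TruSeq kit. The authors deposited 1 table with the read counts per gene and the FPKM values of 10 libraries. Per the submitters' processing notes HISAT2 2.0.4 and GATK 3.2-2 were used. The counting program and the genome build are not given in the sources used here. The table's 39 columns of the authors' own comparisons were not used.

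Counts were tested with edgeR 4.0.16 (TMM, filterByExpr with a minimum count of 10, quasi-likelihood test) in R 4.3.3, with Benjamini-Hochberg adjustment over all genes tested. Treated cells were compared with 0 μM with day as a covariate. Day and linear dose were tested among treated libraries, and treatment by day as an interaction. DESeq2 1.42.0, limma 3.58.1 on log2(FPKM + 1), other scalings, filters and controls, and single libraries left out were alternatives. Those with the untreated libraries had no day covariate. Levels were compared between genes by FPKM. The scripts were tested on simulated data. Counting error alone is covered by the limit of 3 counts.

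The members and gene lists were chosen with earlier results of these data known. The genes named were the members, P4ha1, P4hb, Serpinh1, Fkbp10, Bmp1, Col1a1, Col1a2, the 2 largest rises and falls that passed in each list, and the 3 genes most like each of the 3 members with the largest changes that passed. The result for 1 gene named by this rule is not reported here. Genes cited for a motif, an alternative or a correlation among members were named by their values. Gene positions came from GENCODE M21 (GRCm38) by Ensembl identifier.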

Additional observations from a re-analysis of the deposited data

Results flagged for a closer look

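The fitted change of Lox against 0 μM had opposite signs on the 2 days (0.81, SE 0.36, on day 5 and -0.34, SE 0.33, on day 10). Lox was higher than 0 μM in 3 of 3 treated libraries on day 5 and lower in 3 of 3 on day 10 by FPKM. The fitted difference was -1.14 on the log2 scale (day 10 minus day 5, edgeR, adjusted p = 0.573), which did not pass. By CPM after TMM scaling, Lox at 100 μM on day 10 was 1538 against 1528 at 0 μM, so the direction of that library depended on the scaling. Each day had 1 library at 0 μM. The SE of the fitted difference was 0.485, so the test could not decide whether Lox differed between the days. The simulated counts had the same spread for every gene and did not model Lox by itself.

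Untreated library B-4, used in no main comparison, held 61.7 FPKM of Plod2, above the highest of the 8 libraries compared (53.6 FPKM). It also held 62.0 FPKM of Plod3, above their highest value of 51.5 FPKM. Neither had a replicate, since A-5 held 27.3 and 45.9 FPKM of these mRNAs.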

How the results depend on the processing

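With 8 libraries, 2 of them controls, and no repeat of any dose and day, only shifts that hold over doses and days could be told from spread, and Loxl2 lay at the limit of detection. P4ha2 and Plod1 passed under every alternative with the 0 μM libraries alone as control. Against the untreated libraries 0 members were lower (1585 genes higher, 1616 lower), and Loxl1 (0.71), Loxl3 (0.057), P4ha2 (0.26), P4ha3 (0.48), Plod2 (-0.033), Plod3 (-0.11), P4hb (-0.011), Col5a2 (0.57), Tgfbi (0.71) and Ctgf (2.34) turned sign on the log2 scale. With these libraries added to 0 μM, 1 member was lower (2116 genes higher, 2011 lower) and Col5a2 was 0.040. Col1a1 was -0.053 by library totals, -0.0045 with genes of at least 1 count and -0.066 with limma. The cause was not tested.

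For day 10 against day 5, DESeq2 passed 1 member higher (623 genes higher, 459 lower), genes of at least 1 count gave 1 member higher and 1 lower (902 and 667 genes), dose as a factor gave 1 member higher (460 and 241 genes), library totals gave 316 genes lower, and the log2 library total in place of dose, chosen after seeing the data, gave 1 member higher (583 and 339 genes). For dose, DESeq2 called 1 gene higher and 1 lower, and genes of at least 1 count gave 49 and 59. For the interaction DESeq2 called 55 and 25 genes, and genes of at least 1 count gave 77 and 23.

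With 1 library left out, 0 to 1 members were higher and 2 to 4 lower against 0 μM, with 2124 to 3724 genes higher and 1885 to 3398 lower. The lowest counts came without 0 μM on day 10. For day, 0 members were higher and 0 to 1 lower, with 16 to 277 genes higher and 2 to 133 lower, the fewest without 100 μM on day 5. For dose, 0 members passed, with 0 to 1 genes higher and 0 lower, and for the interaction 0 members, with 0 to 5 genes higher and 0 to 4 lower. Lox against 0 μM ranged from -0.34 to 0.80, Col1a1 from -0.051 to 0.11, Col1a2 from -0.053 to 0.23 and P4hb from -0.072 to 0.23. No paired analysis was possible because the labels give no replicate numbers, but dose as a factor compares the days within each dose.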
